A study of Mus musculus with 40 samples.

Results

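Secreted Wnt inhibitors are extracellular proteins that lower Wnt signalling before it reaches the cell, and 8 of their genes were followed here: Sfrp1, Sfrp2, Sfrp4, Frzb, Wif1, Dkk1, Dkk2 and Dkk3. They were taken as the probes of the deposited array table that carry one of these symbols, which gave 10 of 25697 probes, 3 of them for Dkk3, and 8 of 17914 genes. RNA came from bone of female C57BL/6 mice aged 15 weeks, all ovariectomized, which 1 week later received a subcutaneous dose of 115 µg/kg estradiol (E2) or olive oil as vehicle and were sampled after 18 h. The mice were wild type (WT) or carried a deletion of activation function 1 of estrogen receptor alpha (Era-AF1 KO, written KO), a domain through which the receptor recruits coactivators. Trabecular bone was the vertebral bodies L5 and L6, and cortical bone was flushed long-bone shaft. Bone, genotype and treatment gave 8 groups of 5 arrays, and each of the 5 replicate numbers was 1 BeadChip, a slide carrying 1 array of every group. The labels leave unsaid whether each replicate was its own animal and whether a mouse gave both bones. The p-values therefore reflect sample-to-sample spread, part of which may be technical.

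In bone, Wnt ligands bind frizzled receptors together with the co-receptors LRP5 and LRP6, beta-catenin then accumulates, and osteoblast formation and bone mass increase. Secreted frizzled-related proteins (Sfrp1, Sfrp2, Sfrp4 and Frzb, also called Sfrp3) and Wif1 bind the Wnt ligand itself. Dickkopf proteins Dkk1 and Dkk2 bind the LRP co-receptors instead, while Dkk3 is a divergent family member whose action on Wnt signalling is not settled.

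Promoters of Dkk1, Wif1 and Sfrp2 are shown because these members were each higher in cortical bone in several groups. RefSeq promoter windows (GRCm38.p6, 250 bases before to 50 after the transcription start) were matched by symbol for 5 of the 8 genes. Capitals mark the words searched on both strands: GGTCA, an estrogen response element half-site, CTTTGA, a TCF/LEF word, and TGTGGT, a RUNX word. The sequences read 5′ to 3′ on the gene's strand.
Dkk1, chr19:30549447-30549746, minus strand: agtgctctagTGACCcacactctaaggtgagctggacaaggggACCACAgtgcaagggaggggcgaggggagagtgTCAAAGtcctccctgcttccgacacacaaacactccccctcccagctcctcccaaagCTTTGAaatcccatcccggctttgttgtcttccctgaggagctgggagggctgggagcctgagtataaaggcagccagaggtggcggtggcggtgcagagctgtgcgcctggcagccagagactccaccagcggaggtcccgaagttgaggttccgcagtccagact
Wif1, chr10:121033754-121034053, plus strand: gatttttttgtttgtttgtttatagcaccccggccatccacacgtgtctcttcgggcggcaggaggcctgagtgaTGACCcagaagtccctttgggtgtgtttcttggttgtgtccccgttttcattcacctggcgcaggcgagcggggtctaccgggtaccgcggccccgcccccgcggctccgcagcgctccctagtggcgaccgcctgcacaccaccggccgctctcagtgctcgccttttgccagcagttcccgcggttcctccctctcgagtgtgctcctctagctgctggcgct
Sfrp2, chr3:83766071-83766370, plus strand: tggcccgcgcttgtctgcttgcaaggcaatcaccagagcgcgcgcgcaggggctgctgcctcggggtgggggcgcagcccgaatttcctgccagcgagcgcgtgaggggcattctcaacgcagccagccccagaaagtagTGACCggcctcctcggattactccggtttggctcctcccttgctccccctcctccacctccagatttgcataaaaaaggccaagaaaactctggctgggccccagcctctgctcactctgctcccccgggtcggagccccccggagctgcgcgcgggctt

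The Dkk1 window held 2 CTTTGA words, starting 174 and 117 bases before the transcription start, 1 TGTGGT word and 1 GGTCA word. The Wif1 and Sfrp2 windows held 1 GGTCA word each and neither of the other words. Of all 32851 windows, 40.5% held GGTCA, 16.8% TGTGGT and 16% CTTTGA, so these words are common. A palindromic element, in which GGTCA is followed by any 3 bases and its reverse complement, was in 0 of the 5 members' windows and in 0.07% of all windows. The Frzb window held 1 GGTCA and 1 CTTTGA word, and the Dkk2 window held none of the words.

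The 8 genes differed in how often they could be measured at all. A probe was called detected on an array at a detection p under 0.01, and values below are log2 intensities after background correction and quantile normalization, each compared only with the same probe. Wif1 was detected on 20 of 20 trabecular and 20 of 20 cortical arrays. The brightest Dkk3 probe was detected on 18 trabecular and 20 cortical arrays. Dkk1 was detected on 1 trabecular array and on all 20 cortical ones. Sfrp2 was detected on 0 trabecular and 14 cortical arrays, Sfrp1 on 0 and 9, and Sfrp4 on 5 and 10. Frzb, at an unnormalized intensity of 157 to 292, and Dkk2, at 125 to 235, were not well above background on any of the 40 arrays and were not tested. The third Dkk3 probe was likewise never detected, and the second was detected on 17 trabecular and 20 cortical arrays. With probes required to be detected on at least 5 arrays of a fit, 3 members (Sfrp4, Wif1, Dkk3) were tested within trabecular bone and 6 within cortical bone and between the bones.

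**Figure D1:**
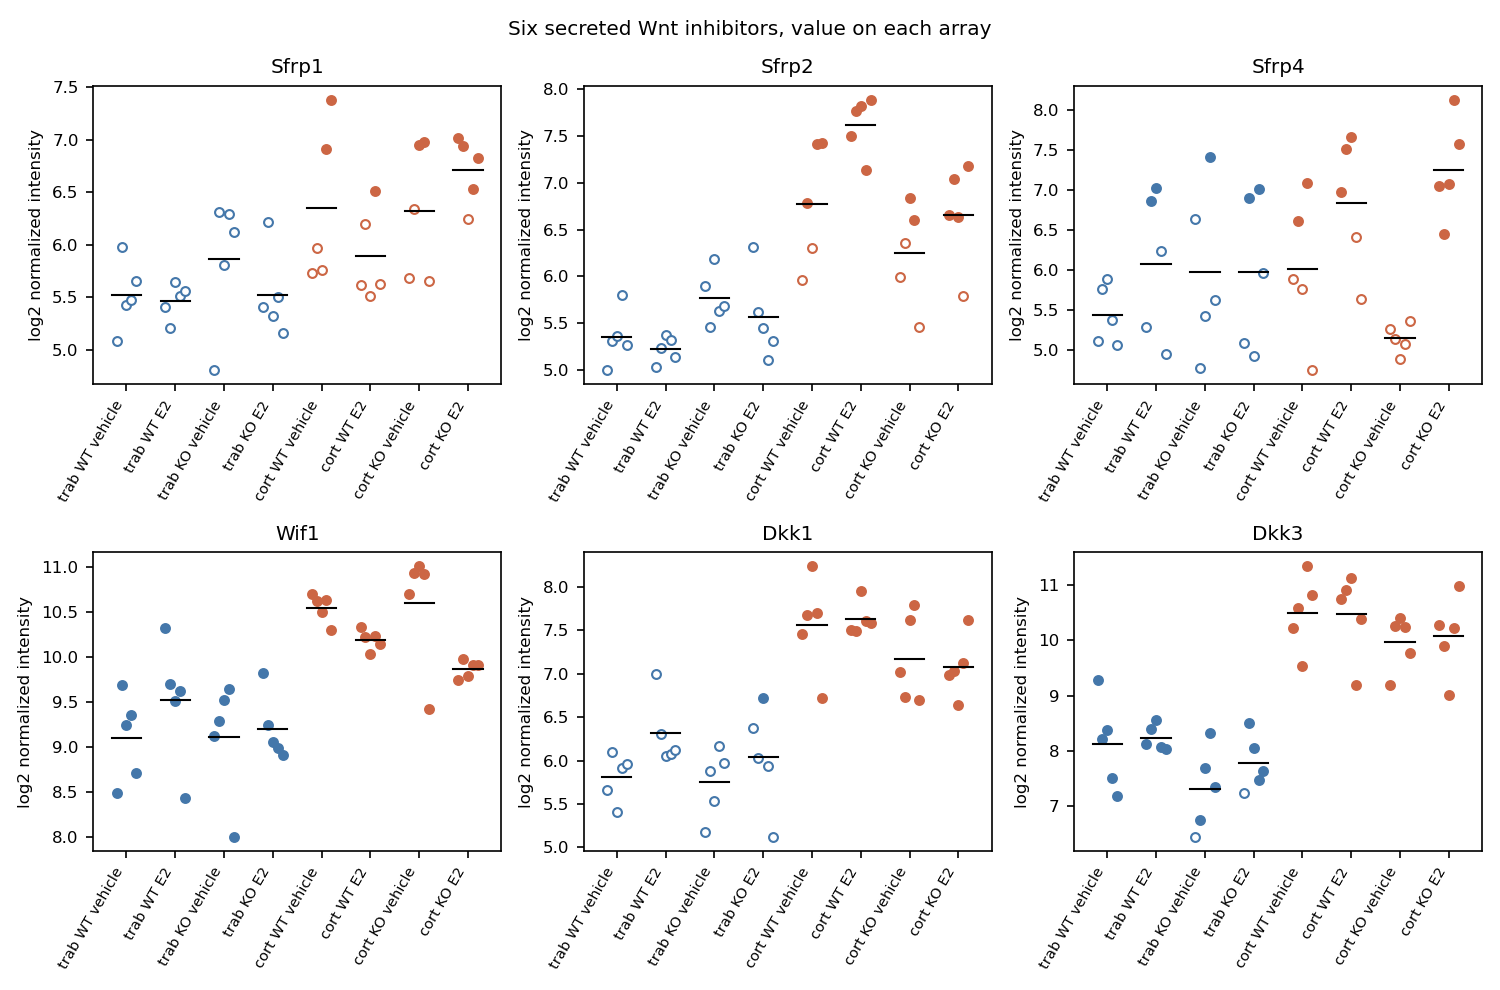
Log2 normalized intensity of the 6 tested members (y axis) on each array of the 8 groups (x axis), blue for trabecular and orange for cortical bone. Filled points were detected, open points were not well above background, and bars are means of 5 arrays. Dkk1 was detected on 1 of 20 trabecular arrays and 20 of 20 cortical arrays.

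The labelled tissues were checked against marker lists before the bones were compared. In WT vehicle, 6 of 7 tested osteocyte markers and 7 of 9 osteoblast markers were higher in cortical bone, while 4 of 8 chondrocyte markers were lower there. Markers of tissue around the bone differed in the same direction as the inhibitors, since 16 of 16 skeletal muscle markers and 7 of 7 periosteum and tendon markers were higher in cortical bone. The log2 of the summed muscle marker intensity ran from 14.8 to 16.7 over the trabecular arrays and from 16.5 to 18.5 over the cortical ones, and that of periosteum and tendon markers from 9.88 to 11.04 and from 10.9 to 13.8. In the other groups 16 of 16 muscle markers and 5 or 6 of 7 periosteum and tendon markers were higher in cortical bone. On BeadChip 1, the 4 trabecular arrays had 8052 to 9218 detected probes, against 10357 to 11203 on the other 16 trabecular arrays and 9880 to 11691 on the cortical ones. Of the other lists in WT vehicle, 4 of 6 smooth muscle, 5 of 9 endothelial, 4 of 7 adipocyte and 3 of 8 marrow stroma markers were higher in cortical bone. There 4 of 9 erythroid, 1 of 8 B lineage and 1 of 11 neutrophil markers were lower (limma). Over all 9451 tested genes, 1098 were higher and 852 lower, so the B lineage and neutrophil counts were near the share of all genes. Mean log2 levels over cortical and trabecular arrays were 10.4 and 8.96 for smooth muscle, 10.2 and 9.57 for endothelial, 9.62 and 8.95 for adipocyte, 8.66 and 9.21 for B lineage, and 12.1 and 12.5 for erythroid markers. The part of these tissues and of detection in the results below was not tested. In bulk RNA, fewer cells of a type cannot be told apart from less RNA per cell.

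The first comparison asked how the inhibitors differ between the 2 kinds of bone. All trabecular samples were vertebral bodies and all cortical samples flushed long-bone shafts. Kind of bone, skeletal site and flushing therefore cannot be told apart in any comparison between the bones. In vehicle-treated WT mice, 5 of the 6 tested members were higher in cortical bone and none was lower. Sfrp1, Sfrp2 and Dkk1 were detected on 0, 0 and 1 of 20 trabecular arrays, so they passed the filter through cortical arrays. Their direction, here and in the other groups, was therefore partly set by the filter. The counts of members called and the median below include them. By limma with Benjamini-Hochberg adjustment, 1950 of 9451 genes differed (20.6%), 1098 higher and 852 lower in cortical bone. The median log2 difference was 1.44 over the 6 members and −0.06 over all genes. Median scaling moved the all-gene median to 0.04 and gave 742 calls, 686 of them higher.

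Dkk3 was higher in cortical bone in all 4 treatment and genotype groups. On BeadChips 1 to 5, its brightest probe read 9.29, 8.22, 8.38, 7.52 and 7.19 in trabecular WT vehicle. In cortical WT vehicle it read 10.23, 10.59, 9.53, 11.35 and 10.82, so every cortical array was above every trabecular one. The log2 difference was 2.39 ± 0.39 (SE), 5.23-fold, with an adjusted p of 3.04e-05 by limma. Of the 8 groups trabecular KO vehicle had the lowest mean, with arrays at 6.44, 6.76, 7.68, 8.32 and 7.35, with the first of them below detection, and the cortical ones read 9.19, 10.26, 10.40, 10.23 and 9.76. The second Dkk3 probe gave for WT vehicle 2.50 ± 0.48 (adjusted p = 0.000256, limma). The brightest probe also differed in the other groups, by 2.24 ± 0.39 in WT E2, 2.66 ± 0.39 in KO vehicle and 2.29 ± 0.39 in KO E2, with no overlap of the groups in any of them. Adjusted p (limma) was 0.000106, 6.59e-06 and 8.6e-05. The second probe gave 1.95 ± 0.48, 2.92 ± 0.48 and 2.53 ± 0.48 in these groups, and its arrays overlapped in WT E2. Over the 20 cortical arrays Dkk3 had a Pearson's r of 0.79 with the mean periosteum and tendon marker level and 0.52 with that of muscle. Over the 20 trabecular arrays these were 0.27 and 0.29. The part of these tissues in the Dkk3 difference was not tested.

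Dkk1, an LRP antagonist made by osteoblasts and osteocytes, read 5.66, 6.10, 5.41, 5.92 and 5.96 in trabecular WT vehicle, detected on 0 of these arrays. In cortical WT vehicle it read 7.45, 7.67, 8.24, 7.70 and 6.72, detected on all 5, again with no overlap. Because the trabecular probe was below detection, the fold is a bound: Dkk1 was at least 1.69-fold higher (group means 7.56 and 5.81, adjusted p = 9.65e-06, limma). Such bounds set the cortical mean against the lowest signal well above background on each trabecular array, or the probe's own signal where that was higher. After E2 the cortical WT arrays read 7.50, 7.49, 7.95, 7.61 and 7.59, a narrow range. The bound was 1.83-fold in WT E2 (adjusted p = 0.000595) and 1.23-fold in KO vehicle (adjusted p = 0.000148, limma for both). In KO E2, where 1 trabecular array detected it, the difference was 1.05 ± 0.26 (adjusted p = 0.00418, limma). That last call was lost without BeadChip 5 (adjusted p = 0.0792, limma).

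Sfrp2, which binds Wnt ligands, was detected on 0 of 20 trabecular arrays. It read 5.00, 5.31, 5.36, 5.81 and 5.26 in trabecular WT vehicle and 5.96, 6.78, 6.31, 7.41 and 7.42 in cortical WT vehicle, where 3 arrays detected it. These groups did not overlap, and the means differed by 1.43 ± 0.27 (adjusted p = 0.000173, limma), although the detection bound was below 1 and gives no fold. In WT E2 the cortical arrays read 7.49, 7.76, 7.82, 7.13 and 7.89 against 5.03 to 5.37 in trabecular bone. There Sfrp2 was at least 1.82-fold higher (measured difference 2.40 ± 0.27, adjusted p = 7.61e-08, limma). In KO E2 the cortical arrays read 6.66, 7.04, 6.63, 5.79 and 7.18 and the trabecular ones 6.32, 5.62, 5.45, 5.11 and 5.32, with overlap through 1 array of each. There it was at least 1.05-fold higher (1.10 ± 0.27, adjusted p = 0.00308, limma). In KO vehicle the difference of 0.48 ± 0.27 missed the threshold (adjusted p = 0.196, limma), with a 95% interval from −0.06 to 1.02, and it was called with array quality weights (adjusted p = 0.0172).

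Wif1, a Wnt-binding protein of mature osteoblasts, read 8.48, 9.69, 9.24, 9.36 and 8.70 in trabecular WT vehicle and 10.70, 10.62, 10.50, 10.63 and 10.30 in cortical WT vehicle. These arrays did not overlap, and the difference was 1.46 ± 0.29, 2.75-fold (adjusted p = 0.000353, limma). In KO vehicle it was 1.49 ± 0.29, 2.8-fold (adjusted p = 0.000267, limma), with 1 cortical array inside the trabecular range. After E2 the differences were 0.68 ± 0.29 in WT and 0.66 ± 0.29 in KO (adjusted p = 0.0918 and 0.0908, limma), which missed the threshold. With the BeadChip as a replicate block both passed it (adjusted p = 0.0363 and 0.0354).

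Among the members, Sfrp1 and Sfrp4 gave the calls lost most often under other settings. Sfrp1, another Wnt-binding antagonist, was below detection on every trabecular array. In cortical WT vehicle it read 5.73, 5.97, 5.76, 6.91 and 7.38, the first 3 below detection, against 5.08 to 5.98 in trabecular bone. The means were 6.35 ± 0.75 in cortical and 5.52 ± 0.33 in trabecular bone (SD, n = 5), with overlap and an adjusted p of 0.0485 by limma, which was lost in 6 of 8 other settings. In KO E2 it read 7.01, 6.94, 6.25, 6.53 and 6.82 in cortical bone, against 5.15 to 6.21 in trabecular bone. These arrays did not overlap, and Sfrp1 was at least 1.08-fold higher (means 6.71 and 5.52, adjusted p = 0.00451, limma). Sfrp4 was called in KO E2 alone, at 1.28 ± 0.47 (adjusted p = 0.0461, limma), and this was lost in 4 of 9 other settings and without any 1 of BeadChips 1, 3, 4 and 5 (adjusted p = 0.061 to 0.173).

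By group, 3 members were called in WT E2 (Sfrp2, Dkk1, Dkk3), beside 19.4% of all genes. In KO vehicle 3 were called (Wif1, Dkk1, Dkk3), beside 22.3%. In KO E2 5 were called (Sfrp1, Sfrp2, Sfrp4, Dkk1, Dkk3), beside 22.9%. The arrays did not overlap for 4 of 6 members in WT vehicle, 3 in WT E2, 2 in KO vehicle and 2 in KO E2. Over all 9451 tested genes, arrays did not overlap in either direction for 14.4%, 12.5%, 16.9% and 16.4%. Averaged over the 4 treatment and genotype groups, a comparison added after the values were seen, 55.7% of all genes were called and so were 5 members. Wif1 and Dkk3, detected on most trabecular arrays, averaged 1.07 ± 0.14 and 2.39 ± 0.19 higher in cortical bone. Sfrp1, Sfrp2 and Dkk1 were detected on 0, 0 and 1 of 20 trabecular arrays, so their measured averages of 0.72 ± 0.15, 1.35 ± 0.13 and 1.38 ± 0.13 rest on values below detection and give no rank. Each of the 5 was higher on 5 of 5 BeadChips. Sfrp4 was at 0.45 ± 0.24 (adjusted p = 0.105, limma). Without background correction the averages were smaller and still called, at 0.27 for Sfrp1, 0.51 for Sfrp2, 0.55 for Dkk1, 0.88 for Wif1 and 1.76 for Dkk3.

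**Figure D2:**
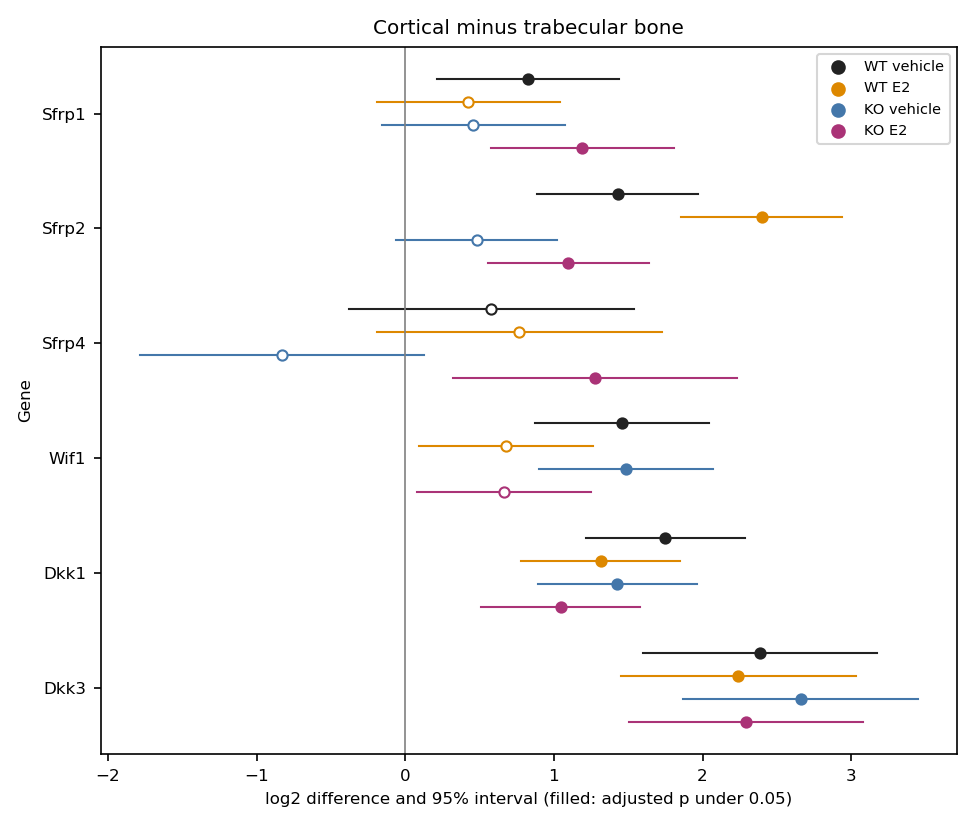
Log2 difference between cortical and trabecular bone (x axis) with its 95% interval for 6 members (y axis), in 4 groups told apart by colour. Filled points passed an adjusted p under 0.05. Dkk3 lay between 2.24 and 2.66 in the 4 groups, and Sfrp4 was below 0 in KO vehicle.

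The rest of the Wnt pathway was read through 105 genes in 5 lists, of which 54 were tested between the bones. In WT vehicle 25 were higher and 2 lower in cortical bone (median 0.66, against −0.06 over all genes). Of all 9451 tested genes 20.6% were called, 1098 higher and 852 lower. Within trabecular bone 44 of the list genes passed the filter, and within cortical bone 51. Genes that passed in cortical but not in trabecular bone had a direction partly set by the filter. The counts here, by role and in the other groups, and the median include such genes. Where the trabecular probe was below detection the fold is a bound and gives no rank. Such genes included Sost, the osteocyte inhibitor sclerostin (at least 1.77-fold, adjusted p = 8.38e-08), the ligand Wnt16 (at least 1.86-fold, adjusted p = 0.000296, limma for both) and the ligand Wnt5a (at least 1.59-fold). The inhibitor Shisa2 (2.22 ± 0.51), the ligand Wnt5b (2.10 ± 0.30), and the target genes Ccn1 (2.11 ± 0.43), Ccn4 (2.07 ± 0.24) and Tnfrsf11b (1.71 ± 0.35), which encodes osteoprotegerin, were also higher. Counted by role, 3 of 5 ligands, 5 of 13 receptors and agonists, 4 of 6 other inhibitors, 5 of 14 intracellular components and 8 of 16 targets were higher. The 2 lower genes were Dkkl1 among the inhibitors (−0.95 ± 0.21) and Gsk3a (−0.69 ± 0.21), which encodes a beta-catenin kinase, named after their values were seen. Axin2, the textbook feedback target, was at 0.84 ± 0.32 (adjusted p = 0.0576), and Wnt4 at 0.76 ± 0.29 (adjusted p = 0.0539, limma for both).

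In the other groups the counts were 28 higher and 1 lower in WT E2, 28 and 1 in KO vehicle, and 23 and 2 in KO E2. Over all 9451 tested genes they were 1077 and 755, 1205 and 898, and 1131 and 1037 (19.4%, 22.3% and 22.9% called). Sost was higher in each, by at least 4.77-fold, 1.86-fold and 3.28-fold. Axin2 was called in WT E2 (1.25 ± 0.32, adjusted p = 0.006) and had 0.54 ± 0.32 in KO vehicle and 0.33 ± 0.32 in KO E2. Wnt4 was called in WT E2 (0.96 ± 0.29, adjusted p = 0.0171) and in KO vehicle (at least 1.5-fold, adjusted p = 7.98e-05) and had 0.73 ± 0.29 in KO E2 (limma). In each group 8 genes were picked by measured difference among those called with 1 sign on all 5 BeadChips. Some were set against undetected trabecular probes, so the pick gives no rank. In WT E2 they were Wnt16, Wnt5b, Tnfrsf11b, Ccn4, Wnt10b, Nkd2, Wnt5a and Sost. In KO vehicle they were Sost, Ccn1, Wnt5b, Tnfrsf11b, Ccn4, Shisa2, Wnt4 and Ror2, and in KO E2 Sost, Wnt16, Ccn1, Wnt5b, Shisa2, Ccn4, Fzd7 and Ror2.

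**Figure D3:**
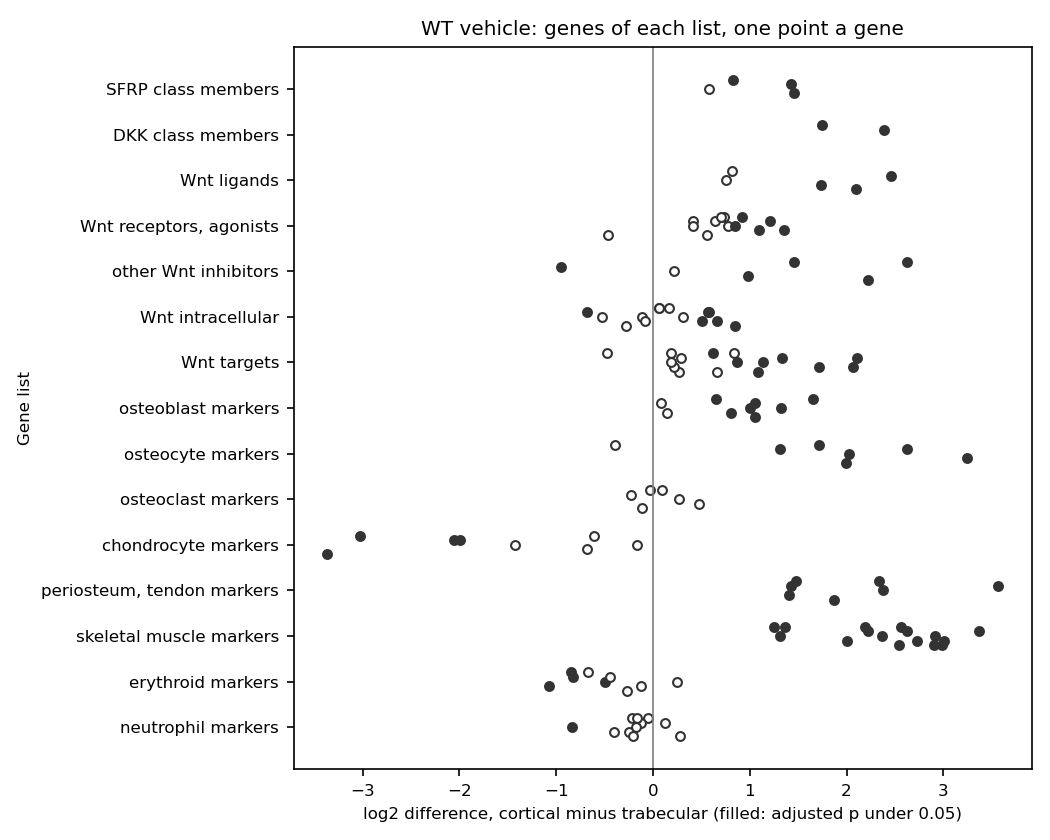
Log2 difference between cortical and trabecular bone of WT vehicle (x axis) for each tested gene of the members, the Wnt lists and 8 marker lists (y axis). Filled points passed an adjusted p under 0.05. All 16 skeletal muscle markers lie above 0, as do the 6 members.

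The second comparison asked whether E2 changes the inhibitors. In trabecular bone it called 0 of 3 tested members in WT, beside 0.207% of all genes, and 0 of 3 in KO, beside 0.0115%, and 0 had an unadjusted p under 0.05 in either. In cortical bone it called 0 of 6 in WT, beside 0.143%, and 0 of 6 in KO, beside 0% (0 of 9096 genes, of which 318 had an unadjusted p under 0.05). At an unadjusted p under 0.05 there was 1 member in cortical WT and 2 in cortical KO, beside 285 and 318 of 9096 genes (limma). Sfrp4 and Wif1 in cortical KO bone had the smallest p-values of the members.

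Sfrp4, a Wnt-binding inhibitor, was below detection on all 5 cortical KO vehicle arrays, at 5.26, 5.13, 4.89, 5.08 and 5.37. On the cortical KO E2 arrays it was detected on all 5, at 7.05, 6.46, 7.08, 8.13 and 7.57. The groups did not overlap, as for 0.715% of all 9096 genes in either direction, and every BeadChip had the higher value with E2. The bound was at least 1.59-fold higher with E2 (measured difference 2.11 ± 0.40), with an unadjusted p of 3.95e-05 and an adjusted p of 0.18 by limma, which ranked Sfrp4 at 2 of 9096 genes and left it uncalled. It passed with median scaling (adjusted p = 0.049) and with array quality weights (adjusted p = 0.0133). Over all settings and left-out arrays the adjusted p ran from 0.0133 to 0.848 and the difference from 0.84, without background correction, to 2.31.

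In cortical WT bone Sfrp4 read 5.89, 6.61, 5.76, 7.09 and 4.74 with vehicle and 6.98, 7.51, 7.66, 6.41 and 5.64 with E2. These arrays overlapped, E2 was higher on 4 of 5 BeadChips, and the difference was 0.82 ± 0.40 (adjusted p = 1, limma). The measured E2 effect was larger in KO by 1.29 ± 0.57, on 5 of 5 BeadChips (unadjusted p = 0.0347, adjusted p = 1, limma). Sfrp4 was detected on 0 of 5 KO and 2 of 5 WT cortical vehicle arrays. This size and the average below therefore rest partly on values below detection. Averaged over genotypes, a comparison added after these values were seen, 1 of 6 members was called, beside 0.0989% of all genes. It was Sfrp4, at 1.47 ± 0.28 (adjusted p = 0.0493, limma), 5 of 5 BeadChips higher. That call was lost with the BeadChip as a replicate block (adjusted p = 0.0671), without background correction, with the authors' values and with no filter. It was also lost without any 1 of BeadChips 1 to 4, and without 16 of the 20 single arrays (adjusted p up to 0.368). In trabecular bone Sfrp4 was detected on 5 of 20 arrays, 2 of them WT E2 (6.86 and 7.02), 1 KO vehicle (7.41) and 2 KO E2 (6.90 and 7.02). The E2 difference there was 0.63 ± 0.50 in WT and 0.00 ± 0.50 in KO.

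Wif1 in cortical KO bone read 10.71, 10.93, 11.02, 10.93 and 9.42 with vehicle and 9.74, 9.98, 9.79, 9.91 and 9.91 with E2. It was lower with E2 on 4 of 5 BeadChips, and the vehicle array of BeadChip 5 was below all E2 arrays. The difference was −0.73 ± 0.22 (unadjusted p = 0.00304, adjusted p = 0.999, limma). Without that array it was −1.03 with an adjusted p of 0.000663, and with array quality weights −0.89 (adjusted p = 0.0147). In cortical WT bone Wif1 read 10.70, 10.62, 10.50, 10.63 and 10.30 with vehicle and 10.33, 10.23, 10.04, 10.23 and 10.15 with E2, lower on 5 of 5 BeadChips, with overlap of 1 pair of arrays. The difference there was −0.36 ± 0.22 (adjusted p = 1, limma). Averaged over genotypes it was −0.55 ± 0.15 (adjusted p = 0.432), and −0.69 without the BeadChip 5 cortical KO vehicle array (adjusted p = 0.000324, limma).

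**Figure D4:**
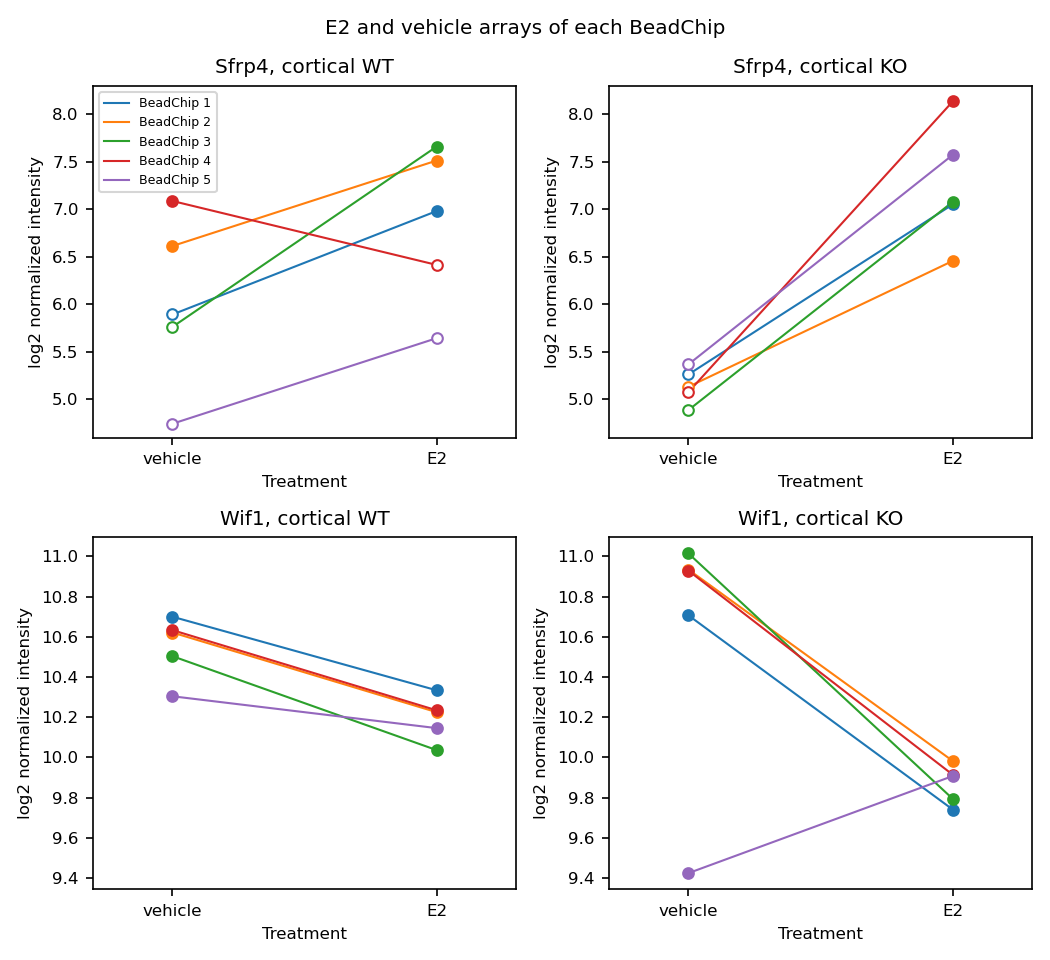
Log2 normalized intensity (y axis) of Sfrp4 and Wif1 in cortical bone with vehicle and E2 (x axis), each line joining the 2 arrays of 1 BeadChip. Filled points were detected. Sfrp4 in KO was higher with E2 on 5 of 5 BeadChips, and Wif1 in KO was lower on 4 of 5, with the BeadChip 5 vehicle array at 9.42.

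Sfrp2 in cortical WT bone was at 6.78 ± 0.65 with vehicle and 7.62 ± 0.31 with E2 (SD, n = 5), a difference of 0.84 ± 0.31, higher on 4 of 5 BeadChips (unadjusted p = 0.0136, adjusted p = 1, limma). In cortical KO bone it was 6.25 ± 0.54 and 6.66 ± 0.54, a difference of 0.41 ± 0.31. Dkk1 and Dkk3 were close to 0 in cortical bone, Dkk1 at 0.07 ± 0.26 in WT and −0.09 ± 0.26 in KO, Dkk3 at −0.03 ± 0.39 and 0.11 ± 0.39. The 95% intervals of Dkk1 ran from −0.46 to 0.61 and from −0.63 to 0.44, and those of Dkk3 from −0.85 to 0.79 and from −0.71 to 0.92. Sfrp1, detected on 9 of 20 cortical arrays, had −0.46 ± 0.33 in WT and 0.39 ± 0.33 in KO. In trabecular bone Dkk3 had 0.12 ± 0.36 in WT and 0.48 ± 0.36 in KO, and Wif1 0.42 ± 0.33 and 0.09 ± 0.33.

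**Figure D5:**
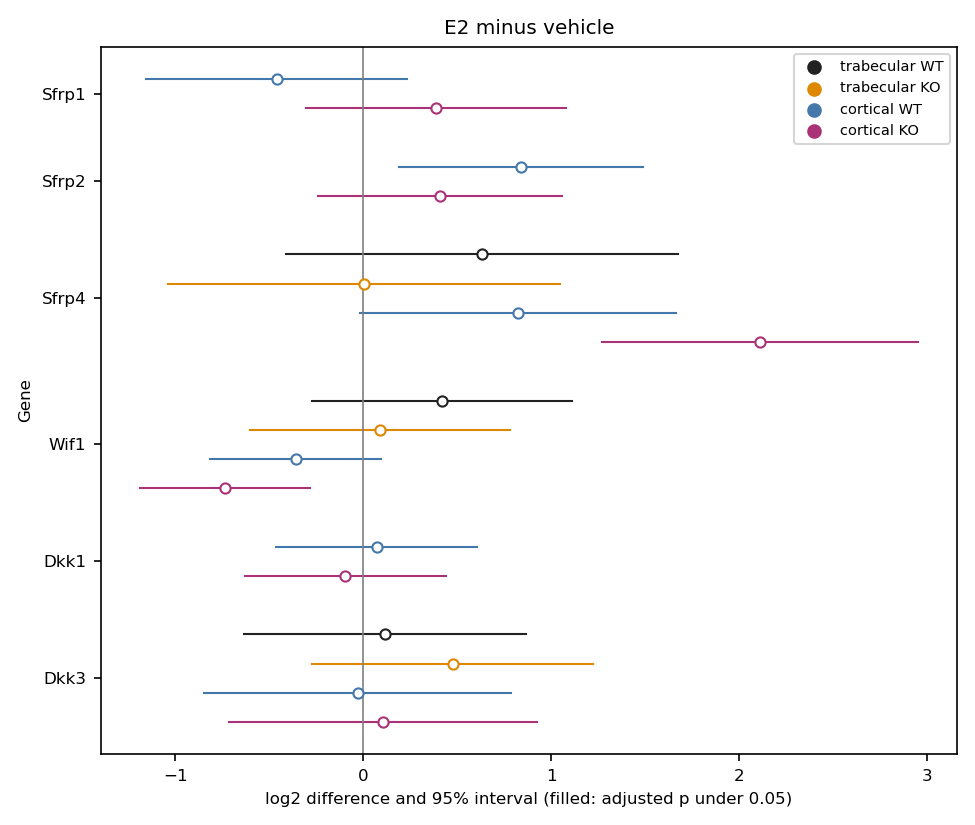
Log2 difference between E2 and vehicle (x axis) with its 95% interval for the members tested in each bone and genotype (y axis, colours). All points are open, since none passed an adjusted p under 0.05. Sfrp4 in cortical KO lay at 2.11.

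Marker lists in the cortical KO E2 comparison held 0 calls, beside 0 of 9096 genes. That count therefore could not show whether tissue markers moved. The summed muscle marker level ran from 17.4 to 18.1 with vehicle and from 17.6 to 18.5 with E2 on the log2 scale. The summed periosteum and tendon level ran from 11.9 to 12.7 and from 11.8 to 13.3. These cortical KO arrays had 9880 to 11151 detected probes with vehicle and 10541 to 11108 with E2. Of the Wnt lists, 0 genes of 44 tested in trabecular and of 51 in cortical bone were called by E2 in either genotype (limma). Sost in cortical bone had 1.39 ± 0.37 in WT (adjusted p = 0.338) and 0.54 ± 0.37 in KO. Wnt4, a ligand, had 1.14 ± 0.24 in trabecular WT (adjusted p = 0.0511), 0.85 ± 0.24 in trabecular KO, 1.34 ± 0.31 in cortical WT (adjusted p = 0.129) and −0.05 ± 0.31 in cortical KO (limma). Averaged over genotypes, 0.196% of all genes were called in trabecular bone, with 0 of 3 members and, of the Wnt lists, Wnt4 alone (1.00 ± 0.17, adjusted p = 0.0114, limma). Axin2 had −0.20 ± 0.37, −0.26 ± 0.37, 0.21 ± 0.23 and −0.48 ± 0.23 in trabecular WT, trabecular KO, cortical WT and cortical KO.

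Whether the E2 effect depends on AF-1 was read as the difference of the effects, KO minus WT. Of the members, 0 of 3 were called in trabecular bone, beside 0.0115% of all genes, and 0 of 6 in cortical bone, beside 0%, with 0 and 1 at an unadjusted p under 0.05 (limma). The 1 was Sfrp4, given above. Of all genes, 322 of 8693 in trabecular and 212 of 9096 in cortical bone had such a p. Sfrp1, detected on 9 of 20 cortical arrays, had 0.85 ± 0.47, Sfrp2 −0.43 ± 0.44 and Wif1 −0.38 ± 0.31 in cortical bone. Of the Wnt lists 0 genes were called. Wnt4 in cortical bone had −1.39 ± 0.44 (adjusted p = 1), Axin2 −0.69 ± 0.32 and Sost −0.85 ± 0.52. In trabecular bone Wnt4 had −0.29 ± 0.34 and Axin2 −0.06 ± 0.53.

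Between genotypes at equal treatment, 0 members were called in any of 4 comparisons by limma. The share of all genes called was 0% in trabecular vehicle, 0.0345% in trabecular E2, 0% in cortical vehicle and 0.022% in cortical E2, and the members with an unadjusted p under 0.05 numbered 1, 0, 1 and 3. Of all genes, 371 and 340 of 8693 in trabecular and 256 and 188 of 9096 in cortical bone had such a p. With E2, cortical Sfrp2 read 7.49, 7.76, 7.82, 7.13 and 7.89 in WT and 6.66, 7.04, 6.63, 5.79 and 7.18 in KO. KO was lower on 5 of 5 BeadChips, with overlap of 1 pair, at −0.96 ± 0.31 (unadjusted p = 0.00588, adjusted p = 1, limma). Sfrp1 was higher in KO on 5 of 5 BeadChips (0.82 ± 0.33), by as little as 0.01 on the lowest, and the groups overlapped. It was detected on 1 of 5 WT and 4 of 5 KO arrays, so that size rests partly on values below detection. Dkk1 was at −0.55 ± 0.26. Wif1 did not overlap between the genotypes with E2, as for 0.33% of all genes, at −0.33 ± 0.22 (adjusted p = 1, limma). With vehicle, cortical Sfrp4 had −0.87 ± 0.40 and trabecular Dkk3 −0.81 ± 0.36 (adjusted p = 1 and 0.942, limma). That Sfrp4 value rests on 0 of 5 KO and 2 of 5 WT arrays with detection, and its bound of 0.67 gives no fold.

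Averaged over treatments, comparisons also added after the values were seen, 0.023% of all genes were called in trabecular and 0.022% in cortical bone, and 0 members in either (1 and 2 with an unadjusted p under 0.05, limma). Of all genes, 390 of 8693 in trabecular and 217 of 9096 in cortical bone had such a p. Among the members the smallest p was that of cortical Sfrp2, at −0.74 ± 0.22, lower in KO on 5 of 5 BeadChips (adjusted p = 1). The Wnt lists held 0 calls in these comparisons. At equal treatment, Wnt4 ranged from −0.80 ± 0.31 in cortical E2 to 0.59 ± 0.31 in cortical vehicle, Axin2 from −0.33 ± 0.23 in cortical E2 to 0.65 ± 0.37 in trabecular vehicle, and Sost in cortical bone was at 0.15 ± 0.37 with vehicle and −0.70 ± 0.37 with E2.

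Whether E2 acts differently in the 2 bones was read as cortical minus trabecular effect. It called 0 of 6 members in WT, beside 0.0106% of all genes, and 0 of 6 in KO, beside 0%, with 1 member each at an unadjusted p under 0.05 (limma). Of all 9451 genes, 256 in WT and 202 in KO had such a p. The members were Sfrp2 in WT at 0.97 ± 0.38, the same sign on 5 of 5 BeadChips, and Sfrp4 in KO at 2.11 ± 0.67 on 4 of 5 (adjusted p = 1 for both, limma). Sfrp2 was detected on 0 of 20 trabecular arrays and Sfrp4 on 0 of 5 cortical KO vehicle arrays. Both sizes therefore rest partly on values below detection. Wif1 had −0.78 ± 0.41 in WT and −0.82 ± 0.41 in KO, in KO with the same sign on 5 of 5 BeadChips. Of the Wnt lists 0 genes were called, with Sost at 1.15 ± 0.42 in WT and 0.56 ± 0.42 in KO, Wnt4 at 0.20 ± 0.40 and −0.90 ± 0.40, and Axin2 at 0.41 ± 0.45 and −0.22 ± 0.45.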

How the data were processed

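Single-colour Illumina BeadChips were read for 40 bone samples in 8 groups of 5. Per the file headers, the deposited table holds each probe's mean bead intensity, and per the labels and the submitters' processing notes it came from GenomeStudio. Its values are not background-subtracted or normalized, as judged from the values. Per the file headers, each has a detection p-value. A second deposited table gives the authors' processed intensity, linear and, judged from its values, quantile-normalized. How it was made is not given in the labels or headers.

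The neqc function (limma 3.58.1, R 4.3.3) corrected the background by way of detection p-values, added an offset of 16 and returned quantile-normalized log2 values. Probes detected at p under 0.01 on at least 5 arrays of a fit were kept, and the brightest probe stood for its gene. Symbols were updated through RefSeq, and the 10 probes of the members carried current symbols. Group means were fitted with lmFit and eBayes on the 20 arrays of a bone, or on all 40 between bones, and p-values were adjusted over all genes of a comparison, with calls at an adjusted p under 0.05. The model was tested on simulated data. Precision is limited by the 5 arrays a group, and dim probes by their signal over background. Errors are standard errors of the fit unless SD is named.

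Named genes were the 8 members, Axin2, Sost and Wnt4 in every comparison, and of the Wnt lists every called gene, or, beyond 8, the 8 with the largest difference among those with 1 sign on all BeadChips. Members and lists were chosen with earlier results of these data known. The 5 averaged comparisons and their alternatives were added after values were seen. Replicate numbers pair arrays because each is 1 BeadChip in the sample titles. Residuals of same-numbered arrays had a mean correlation across genes of 0.0372 to 0.304 in trabecular and −0.0436 to 0.36 in cortical bone. Alternatives were the replicate block, other background correction, scaling, filter and probe rules, array weights, trended and robust variance, other arrays in the fit, and leaving out each BeadChip or array. Some genes of the nearest patterns are not reported here.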

Additional observations from a re-analysis of the deposited data

Results flagged for a closer look

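Of 48 sets of 5 arrays (6 members in 8 groups), 3 held an array far from the other 4 by Dixon's test, where chance flags about 1 in 20. Wif1 on the BeadChip 5 array of cortical KO vehicle was at 9.42, with the nearest of the others at 10.71. Without it the E2 effect on Wif1 in cortical KO bone passed the threshold, as given above. Dkk1 on the BeadChip 1 array of trabecular WT E2 was at 6.9997, with the nearest at 6.31, and was not well above background there. Dkk1 on the BeadChip 3 array of cortical WT E2 was at 7.95, with the nearest at 7.61. Of 48 pairs of effects set side by side (6 members, 8 pairs of E2 or genotype effects), 0 had all BeadChips up in one and all down in the other.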

How the results depend on the processing

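Over 3063 refits of single members' differences, 2877 kept their direction and side of the threshold, 55 lost a call, 16 gained one and 115 uncalled differences changed sign, while 0 called differences reversed. The count of members called in cortical KO bone by E2, 0 in the fit reported, was 1 with median scaling and 2 with array quality weights, and 0 to 1 with a BeadChip or array left out. Between the bones, requiring detection on all arrays left 1 in WT vehicle, 0 in WT E2, 1 in KO vehicle, 0 in KO E2 and 1 in the average, since most members were no longer tested. Fitting the compared groups alone gave 3 in WT vehicle and 3 in KO E2. Sfrp1 and Sfrp2 were detected on fewer than 5 arrays of each of these fits and were not tested in them. In KO E2 that fit also lost the Sfrp4 call (adjusted p = 0.0631) and gained Wif1 (adjusted p = 0.0271, limma for both). With an array or BeadChip left out the counts ran from 4 to 5 in WT vehicle, 3 to 4 in WT E2, 3 to 3 in KO vehicle, 3 to 5 in KO E2 and 5 to 6 in the average. The averaged E2 effect in cortical bone, 1 member in the fit reported, gave 0 with the replicate block, without background correction, with the authors' values, with detection on all arrays and with no filter, 2 with array quality weights, and 0 to 2 with an array or BeadChip left out. The replicate block otherwise changed only the 2 Wif1 calls between bones. Background correction sets the size of dim members: without it the WT vehicle bone difference was 0.71 for Dkk1 and 0.53 for Sfrp2. Median scaling gave 634 of 660 calls higher in cortical bone in WT E2, 753 of 804 in KO vehicle and 545 of 607 in KO E2, against 1077 of 1832, 1205 of 2103 and 1131 of 2168. With 5 arrays a group, members below detection have only bounds. The causes of the other changes were not tested.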

Other observations

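The genes with the pattern most like each member were read over the 40 arrays, as Pearson's r with no test. The arrays share BeadChips and fall apart by bone, so r over all of them mostly follows the bone difference, and a second r had each bone's mean subtracted. Sfrp1, Sfrp2, Sfrp4 and Dkk1 were detected on 9, 14, 15 and 21 of 40 arrays. Their r therefore rests partly on values below detection. Each named gene was picked as one of the 3 highest of 9451. Dkk3 was nearest to Aebp1 (0.95), Nbl1 and Ptn, and with bone means subtracted again to Aebp1 (0.78), then Ednrb and Armh4. Dkk1 was nearest to Prss35 (0.89) and Phex, an osteocyte gene, and then to Klk8 (0.59), Ctnnb1 and Armcx2. Wif1 was nearest to Fap (0.86) and Ltbp1, and then to Zc3h7a (0.72), Jkamp and Srp14. Sfrp2 was nearest to Sost (0.85), Dab2 and Ackr3, and then to Plppr5 (0.65), Stc2 and Osr1. Sfrp4 was nearest to Spast (0.54), Spon2 and H3c8, and then to H3c8 (0.55), Picalm and C6. Sfrp1 was nearest to Bmpr1a (0.73), Ky and Grb14, and then to Tmem41b (0.59), Bmpr1a and Alg6.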
